A study of Homo sapiens with 29 samples.

Results

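To ask how far a pair of non-targeting control siRNAs gave the same transcriptome in senescent cells, the 3 libraries of 4OHT-treated cells transfected with siNT 4 were compared with the 3 libraries of 4OHT-treated cells transfected with siNT 2. These are 6 of the 18 RNA sequencing libraries measured here, placed in their arms by their labels, and each arm holds sets 1VM, 2VM and 3VM. All cells were described as IMR90 ER:RAS. This is a line of human lung fibroblasts infected with a retroviral vector that encodes oncogenic RAS fused to the estrogen receptor (ER). In that line, RAS signaling is switched on by 4-hydroxytamoxifen (4OHT). Other groups served only for comparison: cells given the solvent DMSO with siNT 2 (3 libraries) or siNT 4 (3 libraries), and 4OHT-treated cells with siSMARCA4_2 (3 libraries) or siSMARCA4_4 (3 libraries), in which the chromatin remodeling ATPase SMARCA4 was targeted. As a model, the line is meant to carry the fusion in every arm, DMSO included. However, 1 DMSO siNT 4 library (set 2V), described below, had far less ESR1 than the others. It was not stated whether the sets were separate cultures, so p-values measure only the spread between these libraries. The meaning of the letters V and VM in the set names was not given.

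Oncogenic RAS signals through the RAF, MEK and ERK kinases and, when it stays on in fibroblasts, drives oncogene-induced senescence, a stable growth arrest held by the p53 and p16 pathways. Senescent cells release cytokines, growth factors and proteases, together called the senescence-associated secretory phenotype (SASP), and Notch signaling is known to shift this secretion between a transforming growth factor-β (TGF-β) rich and an inflammatory state. Non-targeting siRNAs are chosen to lack a full match to any human transcript, but any siRNA occupies the RNA interference machinery and can lower transcripts that pair with its seed.

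The 6 libraries held 13237672 to 15407710 counts over genes, and 16380 to 16726 genes had at least 1 count. Of 12 fibroblast markers, 11 passed the filter on low counts, and their summed level was 15529 to 16497 CPM (counts scaled to library size) with siNT 2 and 19034 to 20364 CPM with siNT 4. No marker of epithelial cells (5 genes, with KRT5, KRT14 and SFTPC at 0 counts) or immune cells (5 genes, with NKG7 at 0) passed that filter, and none of these genes exceeded 7 counts in a library. Endothelial markers summed to at most 5.52 CPM. Libraries of 1 arm differed by more than counting noise, with a chi-square per degree of freedom of 2.33 to 9.21. Among the comparison libraries, the DMSO siNT 4 library of set 2V stood apart, with the most genes detected of all 18 (17915), 9.89% of its counts in ribosomal protein genes and 28.0 CPM of ESR1 where the other DMSO libraries had at least 1014 CPM. Most results that use the DMSO libraries are therefore given both with and without it.

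The transgene was higher with siNT 4. ESR1, whose sequence the fusion carries, stood at 2164, 1976 and 1996 CPM with siNT 2 in sets 1VM, 2VM and 3VM and at 2818, 3070 and 2951 CPM with siNT 4. HRAS stood at 4074, 4090 and 4022 CPM with siNT 2 and at 5351, 5637 and 5222 CPM with siNT 4. For both genes every siNT 4 library lay above every siNT 2 library, a 1.44-fold difference for ESR1 and a 1.33-fold difference for HRAS. This difference had been known when the comparison was chosen, so it is a description and was not tested, and the counts do not separate the fusion from the native ESR1 and HRAS genes. Set against the other groups on 1 scale, the 6 siSMARCA4 libraries ranged from 1943 to 2661 CPM of ESR1, below the lowest siNT 4 library (2838 CPM). Their HRAS ranged from 3243 to 4953 CPM, again below the lowest siNT 4 library (5311 CPM) and on both sides of the siNT 2 libraries (4113 to 4248 CPM). SMARCA4, which neither control siRNA is meant to affect, stood at 291, 281 and 270.1 CPM with siNT 2 and 327, 318 and 291 CPM with siNT 4, and its log2 difference of 0.15 ± 0.068 (SE) had an adjusted p of 0.112 in edgeR.

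**Figure D1:**
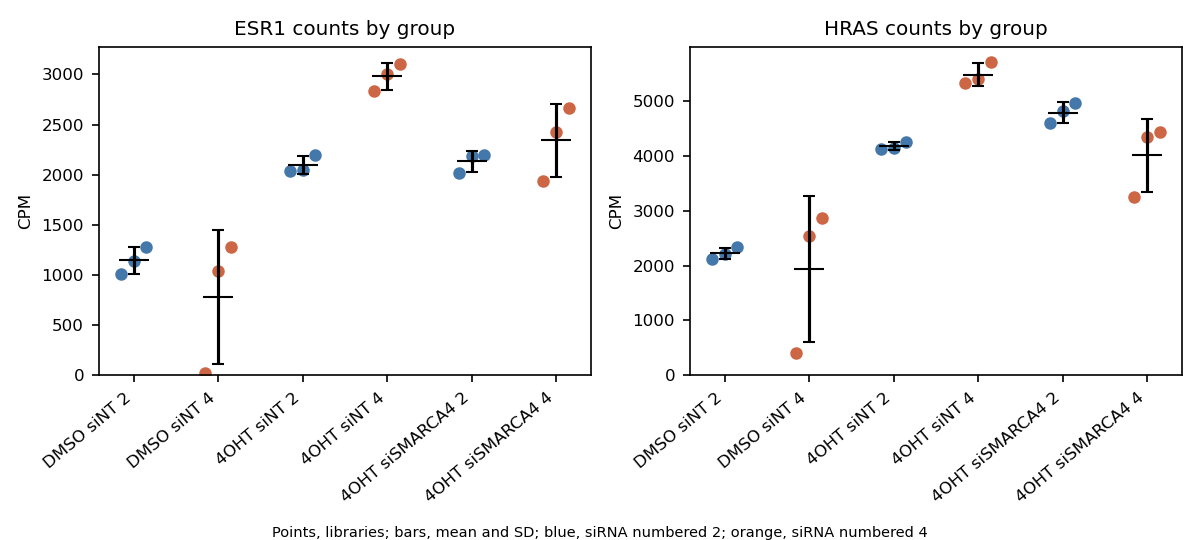
ESR1 and HRAS levels in CPM (vertical axes, from 0) in each of the 18 libraries, by group, with the mean and SD over 3 libraries. The 3 libraries of 4OHT siNT 4 sit highest for both genes, and 1 DMSO siNT 4 library (set 2V) sits at 28.0 CPM of ESR1 and 414 CPM of HRAS.

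Across the transcriptome, 2970 of 12807 genes tested differed between the arms at an adjusted p under 0.05 (23.2%; edgeR's quasi-likelihood test, Benjamini-Hochberg adjustment, n = 3 per arm). With siNT 4, 1381 genes were higher (10.8%) and 1589 lower (12.4%). Scaling by total counts in place of TMM gave 910 higher and 2272 lower, with the median of all genes at a log2 difference of -0.060. Most differences were small: the median absolute log2 difference of the called genes was 0.38, and 178 of them exceeded 2-fold (99 higher, 79 lower). The arms did not overlap for 4958 genes (38.7%), of which 2432 were higher (19%) and 2526 lower (19.7%) with siNT 4. The number called moved with single libraries, from 1558 without the siNT 4 library of set 2VM and 1518 without the siNT 2 library of set 3VM to 3856 without the siNT 2 library of set 1VM. Without the siNT 2 library of set 2VM it was 1799 and without the siNT 4 library of set 1VM 1711. The same contrast taken from a fit over all 18 libraries, which include the DMSO library that stood apart, called 10 genes (0.0732%), and without that library 586 (4.24%).

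Base composition and reads on antisense genes moved with the arms. The log2 difference correlated with the GC content of a gene's exons (Spearman's rho 0.46 across 12445 genes, which are not independent replicates). Among the 2489 genes with the lowest GC content (up to 42.2%) the median log2 difference was -0.20, with 33 genes called higher and 770 lower, and among the 2489 with the highest (from 58.7%) it was 0.14, with 546 higher and 63 lower. With this trend removed within each library, 920 genes were higher (7.18%) and 970 lower (7.57%), and 1454 of the 2970 genes kept their call and direction. A second measure was the share of counts on 485 genes that lie antisense to a far more abundant gene, as a percent of the counts of those partners. It was 1.19, 0.67 and 0.66 in the siNT 2 libraries of sets 1VM, 2VM and 3VM and 1.47, 1.52 and 0.87 in the siNT 4 libraries, so the arms overlapped. Testing covered 248 of the antisense genes, of which 33 passed as higher (13.3%) and 3 as lower (1.21%) with siNT 4, against 10.8% and 12.4% of all genes. With both the GC trend removed and this share as a covariate, 526 genes were higher (4.11%) and 571 lower (4.46%), 8.57% in all. In total 737 genes (341 higher and 396 lower) were called the same way in the main test and under both corrections. Beyond these corrections, the part of base composition and of antisense reads in the results was not tested.

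**Figure D2:**
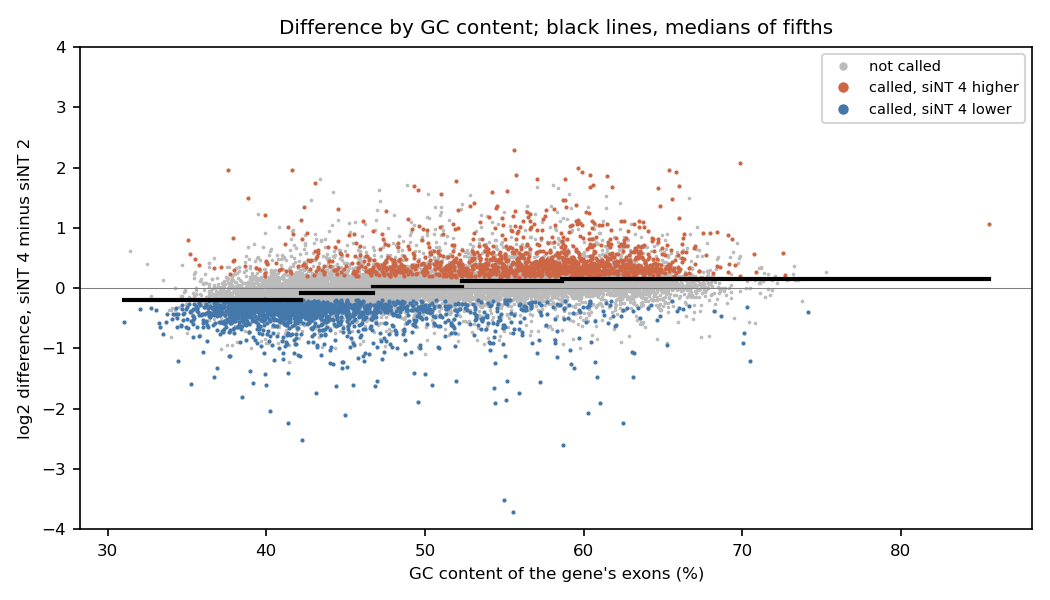
Log2 difference between siNT 4 and siNT 2 in 4OHT cells (vertical axis) against the GC content of each gene's exons in percent (horizontal axis), 1 point per gene, with black lines at the median of each of 5 bins of 2489 genes. The medians rise from -0.20 in the lowest bin to 0.14 in the highest, and the genes called lower lie mostly at low GC content.

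Among called genes with a mean log2 CPM over 1 and arms that did not overlap, the largest falls with siNT 4 were in a sodium channel subunit and a cornified envelope protein. Less abundant genes reached larger differences, from -3.72 to 2.29 on the log2 scale over all genes tested. SCN4B, the beta-4 subunit of voltage-gated sodium channels, stood at 6.12, 6.50 and 8.35 CPM with siNT 2 and at 0.442, 0.741 and 0.612 CPM with siNT 4 (6 to 11 counts), a log2 difference of -3.52 ± 0.26 (SE) with an edgeR adjusted p of 7.76e-07. IVL, which encodes involucrin, a protein crosslinked into the cornified envelope of keratinocytes, stood at 16.6, 16.6 and 15.9 CPM with siNT 2 and 3.31, 2.90 and 1.76 CPM with siNT 4. It was 6.11-fold lower with siNT 4 (log2 difference -2.61 ± 0.17, adjusted p = 8.12e-08 in edgeR). LYPD1, a GPI-anchored modulator of nicotinic acetylcholine receptors, was the most abundant of the 12 largest falls, at 83.3, 97.3 and 112 CPM with siNT 2 and 27.2, 25.3 and 28.1 CPM with siNT 4 (log2 difference -1.86 ± 0.10, edgeR adjusted p = 1.47e-08). The Notch-binding transmembrane protein DNER fell from 5.94 ± 1.07 to 1.60 ± 0.458 CPM (means and SDs, n = 3), and WNT16, a secreted Wnt ligand, fell from 17.1 ± 2.97 to 5.87 ± 0.746 CPM. Other large falls were in PLPPR4 (log2 -2.24), the transcription factor EBF1 (-1.62), the esterase AADAC (-1.60), ATCAY (-1.56), the peptide hormone CCK (-1.54), the neurotrophin NTF3 (-1.54) and NKD1, an inhibitor of Wnt signaling (-1.48). NKD1 was the least secure of these: it stood at 4.13, 2.30 and 2.98 CPM with siNT 2 and 2.28, 0.404 and 0.689 CPM with siNT 4, and the adjusted p rose to 0.0556 without the siNT 2 library of set 1VM, 0.105 without the siNT 4 library of set 2VM and 0.0755 without that of set 3VM.

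Among the 12 largest rises under the same limits, the most abundant was ITPR3, an inositol trisphosphate receptor that releases calcium from the endoplasmic reticulum. It stood at 7.90, 6.97 and 6.90 CPM with siNT 2 and at 26.5, 26.9 and 22.7 CPM with siNT 4, a 3.49-fold difference. ITPR3 differed by a log2 value of 1.80 ± 0.11 (adjusted p = 8.12e-08). PTGDS, which makes prostaglandin D2, rose from 1.87 ± 0.533 to 7.32 ± 0.512 CPM, and UNC13A, which primes synaptic vesicles for release, rose from 3.19 ± 0.319 to 11.8 ± 0.837 CPM (means and SDs, n = 3). FER1L6, of the ferlin family, stood at 8.90, 4.53 and 6.32 CPM with siNT 2 and 20.6, 24.4 and 18.2 CPM with siNT 4. RASL12, which encodes a small GTPase of the RAS superfamily, rose by a log2 difference of 1.70, and MIR210HG, the host transcript of a microRNA known for its induction by hypoxia, by 1.85. The others were LOC100131315 (1.85), C15orf48 (1.34), IGFN1 (1.27), the export transporter ABCC3 (1.23), the adhesion protein SDK1 (1.16) and the gasdermin GSDMB (1.15). These 24 genes were named as the largest called differences with arms that do not overlap, and 23 of them were called in each of the 6 tests that left out 1 library, NKD1 being the exception. With the GC trend removed all 24 stayed under the threshold (adjusted p at most 0.0323, for NKD1). LOC100131315 had no GC value, so this correction did not act on it. With the antisense share as a further covariate, the rises of IGFN1 (adjusted p = 0.0974 in edgeR), ABCC3 (0.0699) and SDK1 (0.0686) lost their calls.

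**Figure D3:**
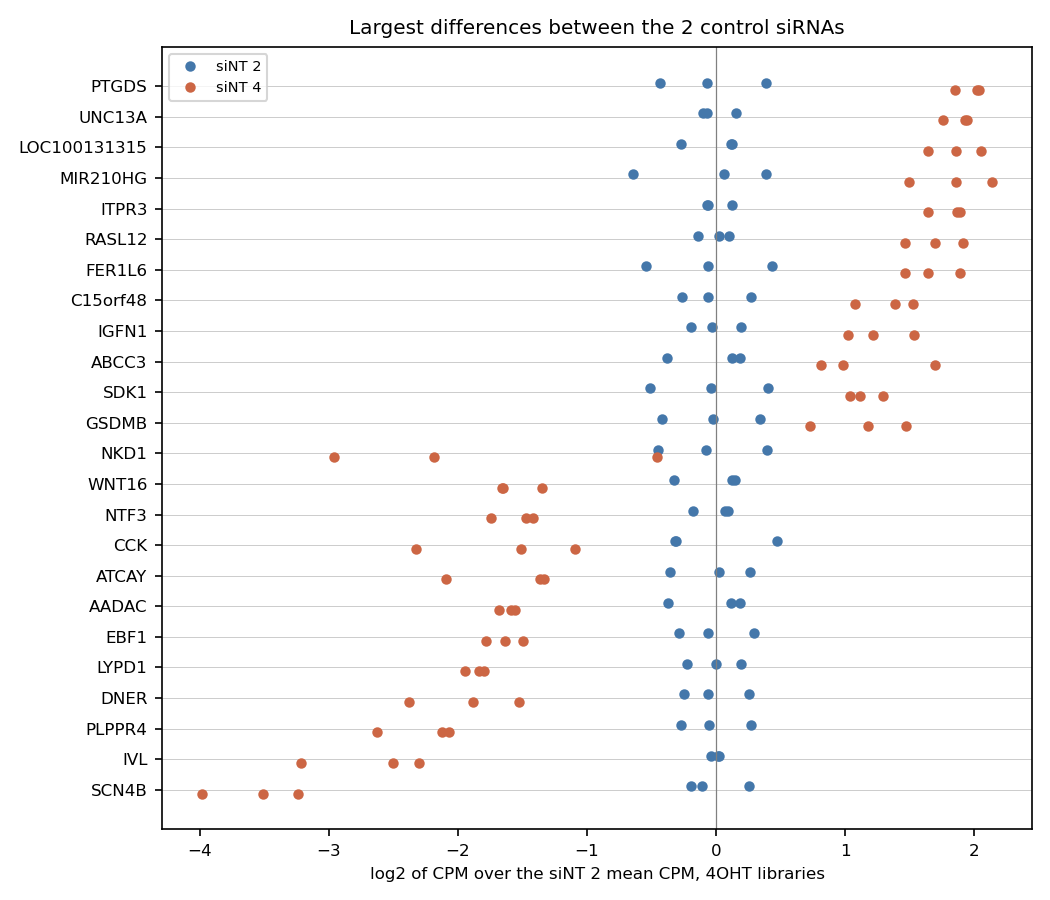
The 12 largest rises (upper rows) and 12 largest falls (lower rows) among called genes whose arms do not overlap, as the log2 of each library's CPM over the siNT 2 mean (horizontal axis), with 3 libraries per siRNA. SCN4B and IVL lie farthest to the left, and the siNT 4 libraries of NKD1 spread from next to the siNT 2 libraries to the far left.

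To show what lies at the start sites of such genes, promoters from RefSeq (GRCh38.p14, 250 bases before to 50 after the start, read on the gene's strand) were searched on both strands for the AP-1 motif TGANTCA, the ETS motif CCGGAA and the RBPJ motif GTGGGAA, the binding sequences of factors that act downstream of RAS and of Notch. Of the 24 genes, 16 had an entry. AP-1 matches lay in 2 of 9 promoters of the largest falls (IVL and LYPD1) and in 0 of 7 of the largest rises, against 4.53% of the 10095 promoters of all genes tested, and no ETS or RBPJ match lay in any of the 16. Over all called genes the AP-1 share was 4.2% for those higher and 5.73% for those lower with siNT 4, the ETS share 27.5% and 28.7% against 30.2% of all, and the RBPJ share 4.2% and 6.13% against 5.59% of all. Median promoter GC content was 67.7% for the higher and 64.3% for the lower genes, and its part in these shares was not tested. The 3 promoters shown are those of the 2 falls with an AP-1 match and of the rise with the lowest adjusted p. Capitals mark AP-1 matches, which start 123 bases before the start site in IVL and 217 and 210 bases before it in LYPD1, where they adjoin.
IVL (chr1:152908296-152908595, plus strand): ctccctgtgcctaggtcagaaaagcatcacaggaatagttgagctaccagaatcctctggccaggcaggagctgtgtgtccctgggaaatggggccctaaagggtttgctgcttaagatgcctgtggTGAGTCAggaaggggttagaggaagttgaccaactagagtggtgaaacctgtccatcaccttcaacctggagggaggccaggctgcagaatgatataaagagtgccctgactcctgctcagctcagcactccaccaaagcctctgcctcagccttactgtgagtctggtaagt
LYPD1 (chr2:132671477-132671776, minus strand): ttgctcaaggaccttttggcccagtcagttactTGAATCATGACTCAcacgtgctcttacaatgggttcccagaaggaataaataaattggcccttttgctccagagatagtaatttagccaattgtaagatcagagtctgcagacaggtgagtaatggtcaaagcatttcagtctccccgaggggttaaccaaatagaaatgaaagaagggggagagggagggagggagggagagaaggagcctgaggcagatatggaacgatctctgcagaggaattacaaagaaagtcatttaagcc
ITPR3 (chr6:33621072-33621371, plus strand): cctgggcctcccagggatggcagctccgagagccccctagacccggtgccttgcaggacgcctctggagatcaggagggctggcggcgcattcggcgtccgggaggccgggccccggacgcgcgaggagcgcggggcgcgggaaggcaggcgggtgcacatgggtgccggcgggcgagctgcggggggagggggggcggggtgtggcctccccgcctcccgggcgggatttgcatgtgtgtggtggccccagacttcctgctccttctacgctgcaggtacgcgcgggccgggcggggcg

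In the RAS pathway itself, 20 of 25 core genes tested besides the transgene were not called, against 9837 of all 12807 genes. Of 25 members of the RAS-MAPK core tested (RAS family GTPases, their exchange factors and GAPs, RAF, MEK and ERK kinases), 4 were higher with siNT 4 and 1 lower, shares of 16% and 4% against 10.8% and 12.4% of all genes, with a median log2 difference of 0.059 against 0.0039. Higher genes included RRAS (0.31 ± 0.088) and the GAP genes RASA2 (0.32 ± 0.09) and RASAL2 (0.31 ± 0.093), all log2 differences ± SE. RRAS was no longer called with the GC trend removed (adjusted p = 0.097), and SHOC2, the gene called lower (-0.25), moved to 0.044. Native NRAS stood at 62.4, 61.6 and 61.7 CPM with siNT 2 and 58.2, 52.5 and 61.6 CPM with siNT 4 and was not called (adjusted p = 0.33). None of these calls held in all fits that left out 1 library: the count fell to 0 without the siNT 2 library of set 3VM or the siNT 4 library of set 1VM, to 1 without the siNT 2 or the siNT 4 library of set 2VM, and rose to 8 without the siNT 2 library of set 1VM.

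Of 26 MAPK target genes tested, 7 were higher (26.9%) and 1 lower (3.85%) with siNT 4, against 10.8% and 12.4% of all genes, at a median log2 difference of 0.17. The immediate early factor EGR2 stood at 7.33, 7.17 and 8.79 CPM with siNT 2 and 11.9, 12.7 and 13.5 CPM with siNT 4. EGR2 differed by a log2 value of 0.71 ± 0.13 (adjusted p = 0.00121). SPRY4, a feedback inhibitor of RAS signaling, stood at 227, 205 and 204 CPM with siNT 2 and 263, 309 and 264 CPM with siNT 4. SPRY4 differed by a log2 value of 0.40 ± 0.077 (adjusted p = 0.00213). Its relatives SPRY2 (0.23) and SPRED3 (0.31) and the early genes EGR1 (0.27), IER3 (0.36) and PHLDA1 (0.20) were also called higher. The fall was in DUSP4, a nuclear phosphatase that inactivates ERK, at 101, 94.1 and 94.9 CPM with siNT 2 and 68.0, 72.3 and 68.0 CPM with siNT 4 (log2 -0.48 ± 0.071, adjusted p = 3.54e-04), with arms that did not overlap. DUSP6, the cytoplasmic ERK phosphatase, missed the threshold with 478, 476 and 444 CPM against 497, 541 and 515 CPM (adjusted p = 0.101), as did CCND1 (cyclin D1) with a log2 difference of -0.048 (adjusted p = 0.618). After removal of the GC trend 4 were higher and 1 lower, and with both corrections 3 and 2. The count higher was 2 without the siNT 4 library of set 2VM, 3 without the siNT 2 library of set 2VM, 4 without the siNT 2 library of set 3VM or the siNT 4 library of set 1VM, and 10 without the siNT 2 library of set 1VM. SPRY4, EGR2 and DUSP4 were called in all 6 such tests.

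Of 8 EGF receptor family genes tested, 2 were higher (25%) and 1 lower (12.5%), against 10.8% and 12.4% of all genes. NRG1, a ligand of ERBB receptors, stood at 362, 323 and 284 CPM with siNT 2 and 444, 653 and 487 CPM with siNT 4. NRG1 differed by a log2 value of 0.71 ± 0.12 (adjusted p = 7.03e-04). The receptor ERBB2 was also called higher (0.28) and the ligand EREG lower (-0.31), neither with the GC trend removed (adjusted p = 0.345 and 0.871). AP-1 factors, the dimers that act at the end of the MAPK cascade, all had positive differences: 12 of 12 tested, of which 5 were called higher (41.7% against 10.8% of all genes). JUN stood at 319, 263 and 258 CPM with siNT 2 and 405, 422 and 405 CPM with siNT 4 (log2 0.55 ± 0.079, adjusted p = 2.51e-04), and FOSL2 at 33.2, 33.7 and 26.8 and 40.3, 47.0 and 40.1 CPM. FOSL2 differed by a log2 value of 0.44 ± 0.10 (adjusted p = 0.00508). JUND, FOSB and MAFF were called at log2 differences of 0.20 to 0.30, and none of these 3 with the GC trend removed, where only JUN and FOSL2 stayed. With the antisense share as a further covariate 1 AP-1 gene was called. The median GC content of these 12 genes was 58.0%, against 49.4% over all genes tested. Without the siNT 2 library of set 3VM or the siNT 4 library of set 2VM, 2 AP-1 genes were called. JUND lost its call in all 6 tests that left out 1 library, FOSB in 4 and MAFF in 2.

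For Notch, 1 ligand fell, and 8 of 13 receptors and modifiers were not called, against 9837 of all 12807 genes. JAG1, the ligand Jagged 1, stood at 82.2, 77.7 and 91.6 CPM with siNT 2 and at 40.8, 43.4 and 42.3 CPM with siNT 4, 1.99-fold lower with arms that did not overlap. JAG1 differed by a log2 value of -0.99 ± 0.081 (adjusted p = 1.91e-06). The difference was as large with the GC trend removed (log2 -1.03, adjusted p = 1.26e-05), and the gene lies at chr20:10637684-10673999 on the minus strand of GRCh38 (GENCODE). Of 6 ligands tested 5 had negative differences, among them DLL4 at 22.1, 24.2 and 25.0 CPM with siNT 2 and 17.3, 22.9 and 18.8 CPM with siNT 4 (adjusted p = 0.0809, and 0.0167 with the GC trend removed), and DLK1 was the exception. Of 13 receptors and modifiers, 4 were higher (NOTCH2, RFNG, MAML1 and NUMB, log2 0.24 to 0.40) and 1 lower, the ligand-cleaving and receptor-cleaving protease ADAM10 (-0.26 ± 0.065). These are shares of 30.8% and 7.69%, against 10.8% and 12.4% of all genes, and with both corrections the list held 1 higher and 2 lower. RFNG, a glycosyltransferase that modifies Notch, and the coactivator MAML1 were called in every test without 1 library, NOTCH2 and NUMB were not. NOTCH1 stood at 82.2, 59.2 and 64.0 CPM with siNT 2 and 78.6, 91.0 and 74.9 CPM with siNT 4 (adjusted p = 0.0993). Of 4 target genes tested, HES1 (-0.46 ± 0.15) and HES4 (-0.39 ± 0.13) were called lower although their arms overlapped, and HEY1 was not called, with a log2 difference of 0.28 ± 0.10 (adjusted p = 0.052). Once the GC trend was removed HEY1 was called higher (log2 0.33, adjusted p = 0.0368), HES4 stayed lower and HES1 lost its call (adjusted p = 0.062), and with the antisense share as well none of the 4 was called. Both HES genes lost it without the siNT 2 library of set 2VM or 3VM and without the siNT 4 library of set 1VM or 2VM.

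TGF-β secretome genes split. Of 21 tested, 5 were higher (23.8%) and 6 lower (28.6%) with siNT 4, against 10.8% and 12.4% of all genes, and the median log2 difference was -0.0099. The ligand TGFB2 stood at 16.0, 15.1 and 15.2 CPM with siNT 2 and 8.10, 9.09 and 9.34 CPM with siNT 4. TGFB2 differed by a log2 value of -0.80 ± 0.11 (adjusted p = 2.25e-04). Lower with it were the matricellular protein THBS1, at 1254, 1223 and 1375 CPM against 878, 794 and 808 CPM (log2 -0.63 ± 0.069, adjusted p = 2.50e-05), and the contractile genes TAGLN (log2 -0.72 ± 0.088, adjusted p = 7.43e-05) and ACTA2. ACTA2 differed by a log2 value of -0.19 ± 0.066 (adjusted p = 0.0468). SKIL, a SMAD repressor (-0.39), and the activin subunit INHBA (-0.22) completed the falls. In the other direction, TGFB1 stood at 287, 280.1 and 297 CPM with siNT 2 and 362, 411 and 348 CPM with siNT 4 (log2 0.38 ± 0.072, adjusted p = 0.00197), and LTBP2, which encodes a latent TGF-β binding protein family member, at 408, 308 and 277 and 577, 618 and 529 CPM. LTBP2 differed by a log2 value of 0.80 ± 0.11 (adjusted p = 1.70e-04). The type I collagen chains COL1A1 (0.41 ± 0.067) and COL1A2 (0.47 ± 0.06) were higher as well. CCN2, a common TGF-β target, had a log2 difference of -0.035 and was not called (adjusted p = 0.754). With the GC trend removed the list held 7 higher and 7 lower, and with the antisense share as a further covariate 6 and 6. ACTA2 lost its call in 5 of the 6 tests without 1 library (all but that without the siNT 2 library of set 1VM) and INHBA in 4 (without the siNT 2 library of set 2VM or 3VM, or the siNT 4 library of set 1VM or 3VM).

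SASP cytokines were higher with siNT 4 where they were called. Of 29 listed, 21 were tested, and 8 were higher (38.1% against 10.8% of all genes) and none lower (against 12.4%). Positive differences were found for 20, against 6478 of all 12807 genes, and the median log2 difference was 0.31. The granulocyte factor CSF3 stood at 53.3, 56.7 and 43.6 CPM with siNT 2 and 83.2, 137 and 94.6 CPM with siNT 4. CSF3 differed by a log2 value of 1.04 ± 0.14 (adjusted p = 1.92e-04). LIF, a cytokine of the IL-6 family, stood at 489, 442 and 428 CPM with siNT 2 and 751, 942 and 698 CPM with siNT 4 (log2 0.82 ± 0.094, adjusted p = 4.26e-05), with every siNT 4 library above every siNT 2 library. The growth factors VEGFA (0.40 ± 0.087) and HGF (0.37 ± 0.069), the cytokine IL11 (0.41 ± 0.13) and the chemokine CCL20 (0.48 ± 0.13) did not overlap between arms, and the myeloid growth factor CSF2 (0.69 ± 0.22) and the upstream SASP cytokine IL1A (0.36 ± 0.12) were called although theirs did. IL6 was not called, at 47.4, 55.5 and 43.8 CPM with siNT 2 and 44.0, 86.1 and 52.0 CPM with siNT 4 (adjusted p = 0.198). CXCL8, which encodes IL-8, stood at 1580, 1909 and 1432 and 1294, 2437 and 1694 CPM (adjusted p = 0.545), and IL1B at 981, 981 and 769 and 834, 1439 and 959.5 CPM (adjusted p = 0.234). In all 3 of these genes the siNT 4 library of set 2VM was the highest of the 6 libraries, and that of set 1VM was the lowest siNT 4 library. Without the siNT 4 library of set 2VM 4 cytokine genes were called, and the list's median log2 difference fell to 0.096. Without that of set 1VM 13 were called, at a median of 0.43. The list held 7 higher and 0 lower with the GC trend removed, 4 and 0 with the antisense share as a covariate, and 4 and 0 with both. CSF3, LIF, VEGFA and HGF were called in every test without 1 library.

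**Figure D4:**
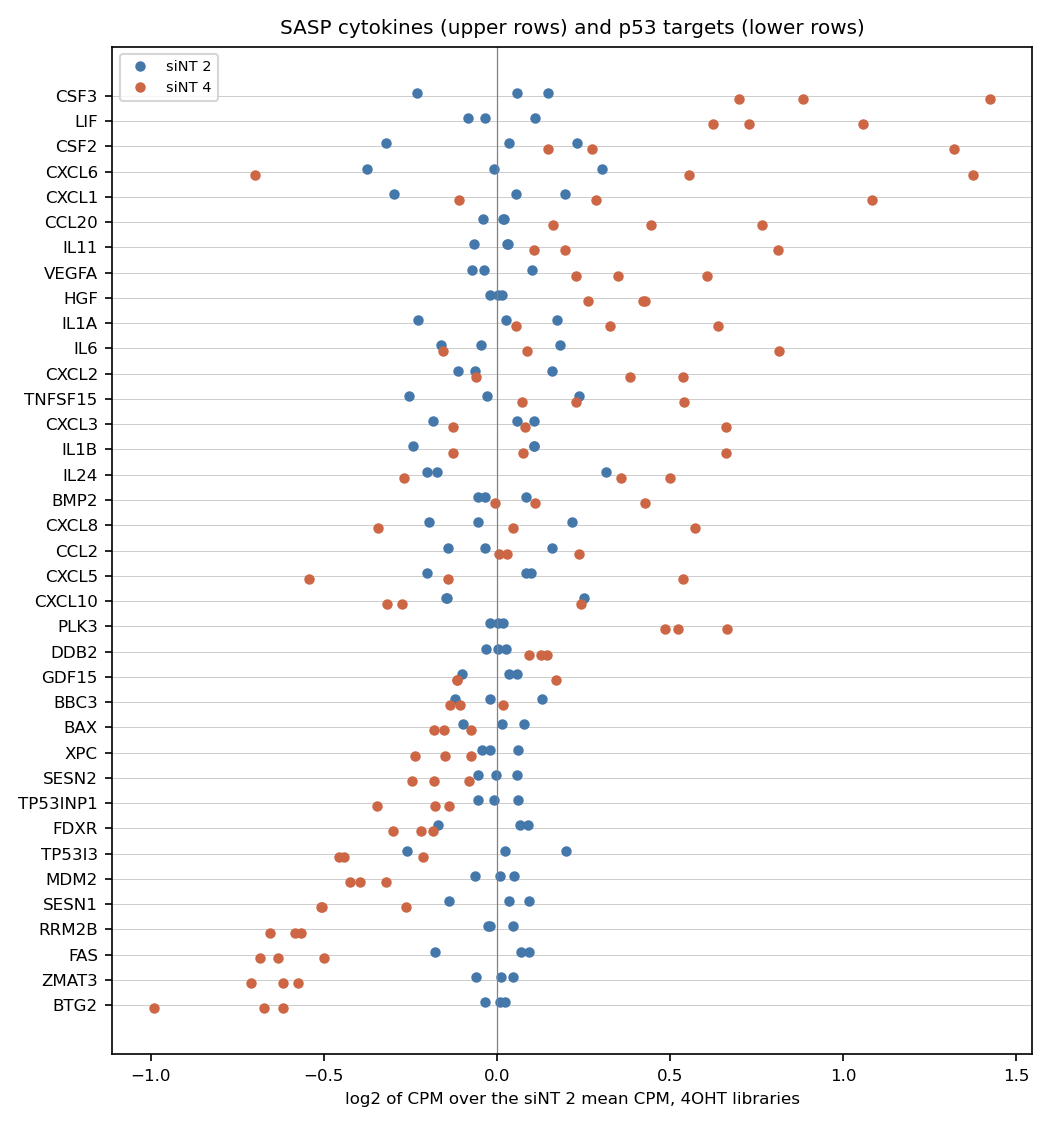
SASP cytokines (21 upper rows) and p53 targets (16 lower rows), as the log2 of each library's CPM over the siNT 2 mean (horizontal axis), with 3 libraries per siRNA. The siNT 4 libraries lie to the right of the siNT 2 libraries for CSF3 and LIF and to the left for the p53 targets from MDM2 to BTG2.

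The list of SASP proteases and their inhibitors also held the receptor PLAUR and the secreted protein STC1. It gave 6 higher (33.3%) and 3 lower (16.7%) of 18 tested, against 10.8% and 12.4% of all genes. TIMP1, an inhibitor of matrix metalloproteinases, stood at 3884, 4652 and 4441 CPM with siNT 2 and 6193, 6697 and 6661 CPM with siNT 4 (log2 0.59 ± 0.072 SE, adjusted p = 7.34e-05), and the lysosomal protease CTSB at 3888, 3909 and 3856 and 5291, 5606 and 5256 CPM. CTSB differed by a log2 value of 0.47 ± 0.061 (adjusted p = 1.07e-04). MMP10 (stromelysin 2), far less abundant, stood at 15.8, 13.4 and 10.9 CPM with siNT 2 and 21.3, 27.8 and 25.2 CPM with siNT 4. MMP10 differed by a log2 value of 0.89 ± 0.13 (adjusted p = 3.02e-04). SERPINE2 (0.28), MMP2 (0.25) and MMP14 (0.26) were also higher. The interstitial collagenase MMP1, the most abundant protease of the list, stood at 6877, 7312 and 7303 CPM with siNT 2 and 5856, 6025 and 6526 CPM with siNT 4 (log2 -0.22 ± 0.064, adjusted p = 0.0203), but at -0.032 (adjusted p = 0.701) with the GC trend removed. MMP12 (-0.72) and TIMP3 (-0.23) were the other falls, and MMP3 was not called (0.042, adjusted p = 0.715). Removing the GC trend gave 5 higher and 1 lower, and with both corrections 5 and 0. Leaving out 1 library gave 4 to 7 higher and 0 to 3 lower, with 0 lower without the siNT 2 library of set 2VM or 3VM or the siNT 4 library of set 1VM and 1 lower without that of set 2VM. The NF-κB and C/EBP list held factors that drive SASP transcription together with inhibitors such as NFKBIA and induced genes such as TNFAIP2. Of its genes, 15 of 15 tested had positive differences and 5 were called higher (33.3% against 10.8% of all genes). These were CEBPD (0.55 ± 0.12), TNFAIP2 (0.39), BCL3 (0.34), RELB (0.27) and RELA (0.27). The list as a whole is therefore not one of activators alone. The median GC content of the 15 genes was 61.2%. Of them, 2 were called with the GC trend removed, 1 with both corrections, and 1 (CEBPD) without the siNT 4 library of set 2VM.

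Of 17 p53 targets tested, 7 were called lower with siNT 4 (41.2% against 12.4% of all genes), 1 was called higher (5.88% against 10.8%) and 9 were not called. The difference was negative for 15 of the 17, at a median log2 difference of -0.22. Arms did not overlap for 11 of them in the lower direction (64.7% against 19.7% of all genes). BTG2, an antiproliferative gene, stood at 63.9, 62.0 and 64.5 CPM with siNT 2 and 39.8, 32.0 and 41.4 CPM with siNT 4. BTG2 differed by a log2 value of -0.75 ± 0.092 (adjusted p = 7.34e-05). ZMAT3, an RNA-binding p53 target, stood at 226, 215 and 231 CPM with siNT 2 and 146, 137 and 150.5 CPM with siNT 4. ZMAT3 differed by a log2 value of -0.63 ± 0.067 (adjusted p = 2.20e-05). The ribonucleotide reductase subunit RRM2B stood at 204, 194 and 195 and 132, 126 and 134 CPM (log2 -0.60 ± 0.065, adjusted p = 2.50e-05), and the death receptor FAS at 59.8, 71.0 and 72.2 and 43.7, 42.1 and 47.9 CPM. FAS differed by a log2 value of -0.60 ± 0.088 (adjusted p = 3.05e-04). MDM2, which encodes the ubiquitin ligase that degrades p53, stood at 147, 151 and 139.6 CPM with siNT 2 and 109, 111 and 117 CPM with siNT 4. MDM2 differed by a log2 value of -0.38 ± 0.067 (adjusted p = 0.00121). SESN1 (-0.42) and TP53I3 (-0.37) were the other falls, while the kinase PLK3 was higher, at 125, 124 and 122 CPM with siNT 2 and 177, 196 and 173 CPM with siNT 4. PLK3 differed by a log2 value of 0.56 ± 0.069 (adjusted p = 7.45e-05). GDF15, a secreted stress cytokine, was not called (-0.013, adjusted p = 0.925). With the GC trend removed 9 were lower (52.9% against 7.57% of all genes) and 1 higher, with both corrections 7 and 1, and leaving out 1 library gave 6 to 9 lower and 1 higher each time. Of these calls only TP53I3 was lost when 1 library was left out: without the siNT 2 library of set 2VM or 3VM, or the siNT 4 library of set 2VM or 3VM.

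Most arrest genes were not called, as was true of all genes tested (9837 of 12807). CDKN1A, the p53-induced CDK inhibitor p21, stood at 2245, 2250 and 2388 CPM with siNT 2 and 2253, 2306 and 2088 CPM with siNT 4. The log2 difference of CDKN1A was -0.05 ± 0.064 (adjusted p = 0.607). CDKN2A, the gene of p16 and ARF, stood at 107, 129 and 123 and 139, 129 and 128 CPM (adjusted p = 0.195), and CDKN2B at 391, 396 and 412 and 386, 354 and 367 CPM (adjusted p = 0.21, and 0.0194 with the GC trend removed). Of 7 CDK inhibitors only CDKN1B was called, lower with siNT 4 (14.3% against 12.4% of all genes; log2 -0.40 ± 0.11), and not with the GC trend removed (0.157) or without the siNT 2 library of set 3VM or the siNT 4 library of set 2VM. Of 21 proliferation genes tested, 3 were higher (14.3%) and 2 lower (9.52%), near the 10.8% and 12.4% of all genes. The helicase subunits MCM5 (0.68 ± 0.12) and MCM7 (0.46 ± 0.08) were higher, MCM3 (-0.57 ± 0.11) and the clamp PCNA (-0.44 ± 0.10) lower. E2F1 was the third rise (0.39, adjusted p = 0.0451), a call lost in 5 of the 6 tests without 1 library (all but that without the siNT 4 library of set 3VM). MKI67 stood at 0.498, 0.744 and 1.09 CPM with siNT 2 and 1.18, 0.741 and 0.842 CPM with siNT 4 (adjusted p = 0.695).

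**Figure D5:**
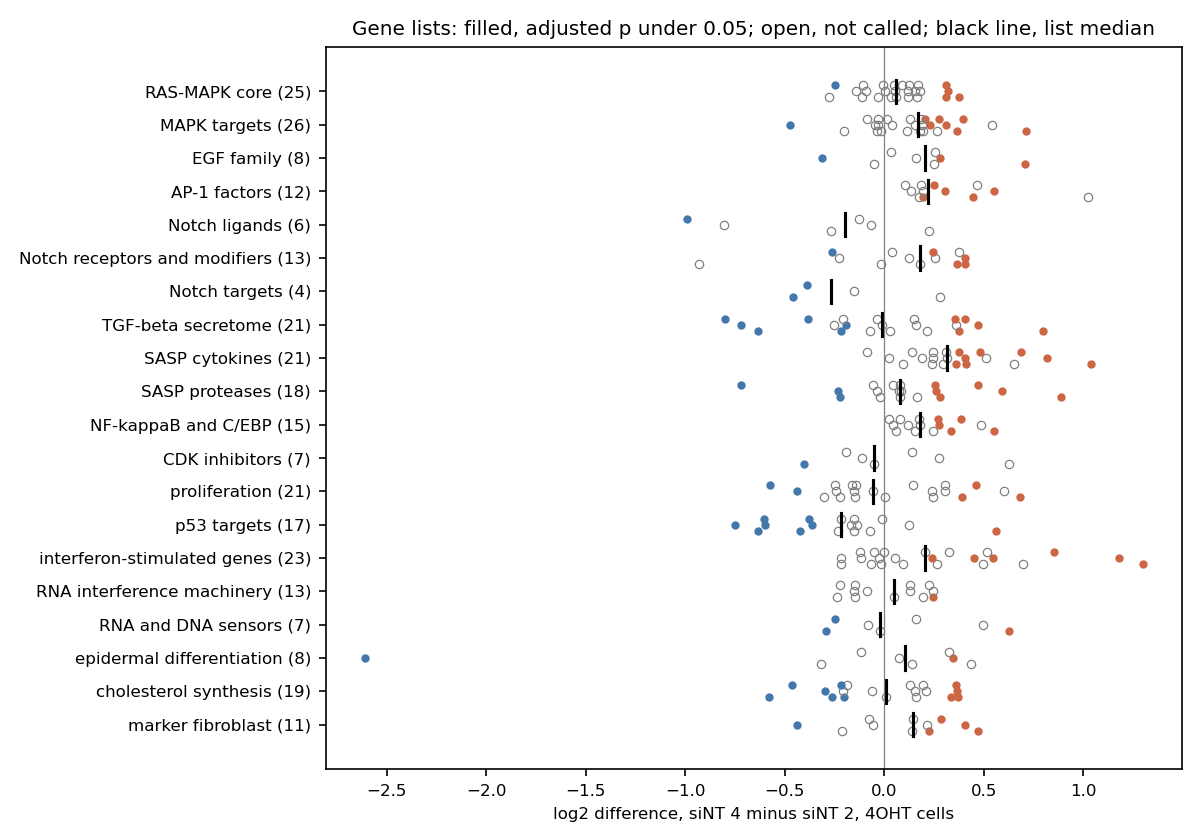
Log2 difference between siNT 4 and siNT 2 (horizontal axis) of every tested member of each gene list (rows, with the number tested), filled where the adjusted p was under 0.05 and open where not, with a black line at the list's median. All called SASP cytokines and AP-1 factors lie to the right of 0, and 7 of 8 called p53 targets lie to the left.

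Genes that answer to RNA itself were examined because both arms received a duplex RNA. Of 23 interferon-stimulated genes tested, 6 were higher (26.1% against 10.8% of all genes) and none lower. MX1, a GTPase that blocks virus replication, was close to absent in both arms, at 0.641, 0.609 and 0.218 CPM with siNT 2 (3 to 9 counts) and 1.18, 1.48 and 0.995 CPM with siNT 4 (log2 1.30 ± 0.41 SE, adjusted p = 0.0328), and OAS3 likewise at 0.926, 0.744 and 0.654 and 1.40, 2.69 and 1.15 CPM (1.18 ± 0.38). IFI6 (0.85), IFITM1 (0.55), IRF9 (0.45) and STAT2 (0.24) were the others, and with the GC trend removed only STAT2 was called (adjusted p = 0.0469). Each of the 6 calls was lost in at least 1 test without a library, and the number called was 2 without the siNT 2 library of set 2VM or 3VM or the siNT 4 library of set 2VM, and 3 without that of set 1VM. Among RNA and DNA sensors, STING1, the adaptor of cytosolic DNA sensing, stood at 25.9, 24.1 and 23.5 CPM with siNT 2 and 34.3, 48.5 and 30.2 CPM with siNT 4 (log2 0.63 ± 0.13, adjusted p = 0.00387), the kinases EIF2AK2 (-0.25) and TBK1 (-0.29) were lower. These were 1 higher (14.3%) and 2 lower (28.6%) of 7 tested, against 10.8% and 12.4% of all genes, and with the GC trend removed only STING1 was called. Of 13 genes of the RNA interference machinery, 1 was called higher (7.69% against 10.8% of all genes), DGCR8 (0.25 ± 0.079), a call lost with the GC trend removed and in 5 of the 6 tests without 1 library (all but that without the siNT 2 library of set 1VM). AGO2, the slicing Argonaute, stood at 158, 123 and 117 CPM with siNT 2 and 146, 150.2 and 138 CPM with siNT 4 (adjusted p = 0.339).

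Epidermal differentiation genes, of which 8 of 35 passed the filter, held 1 fall (IVL) and 1 rise (S100A6, 0.34 ± 0.077), 12.5% each against 12.4% and 10.8% of all genes. Of 19 genes of cholesterol synthesis and its control, 4 were higher (21.1%) and 6 lower (31.6%), against 10.8% and 12.4% of all genes. The higher genes included SREBF1, SREBF2 and FASN (log2 0.34 to 0.36), and the lower ones were led by the enzymes SC5D (-0.58 ± 0.10) and IDI1 (-0.46 ± 0.085), with SQLE (-0.22) and the sterol sensor INSIG1 (-0.30). SREBF1, SREBF2 and FASN had GC contents of 57.1 to 65.3% and SC5D, IDI1 and SQLE of 37.7 to 41.8%, and with the GC trend removed 4 were higher and 5 lower, and with both corrections 2 and 1. Of 11 fibroblast markers 4 were higher (COL1A1, COL1A2, VIM and PDGFRB, 36.4% against 10.8% of all genes) and 1 lower (9.09% against 12.4%), the surface glycoprotein THY1, at 447, 459 and 487 CPM with siNT 2 and 354, 352 and 322 CPM with siNT 4. THY1 differed by a log2 value of -0.44 ± 0.067 (adjusted p = 4.15e-04). The call of PDGFRB was lost in 4 of the 6 tests without 1 library, while those of COL1A1, COL1A2, VIM and THY1 held in all 6.

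The same siRNAs were compared in DMSO cells. No gene of 12944 was called there (edgeR, 1137 at an unadjusted p under 0.05, 12 calls by DESeq2), and none of 13124 without the library that stood apart (1569 at an unadjusted p under 0.05). Without it, the DMSO log2 difference was -0.13 ± 0.16 (SE) for JAG1, -0.51 ± 0.35 for ITPR3, -0.40 ± 0.28 for LYPD1, -0.95 ± 0.58 for SCN4B, -0.28 ± 0.25 for LIF, -0.20 ± 0.15 for ZMAT3 and -0.29 ± 0.20 for BTG2. With it, in the same order of genes, the values were -0.022 ± 0.20, -0.78 ± 0.45, -0.75 ± 0.47, -1.41 ± 0.81, -0.47 ± 0.33, 0.0067 ± 0.23 and 0.27 ± 0.39, so that the sign turned for ZMAT3 and BTG2. Without that library, across 12420 genes the 4OHT and DMSO differences, which share no library, correlated at Pearson's r = -0.22 and Spearman's rho = -0.15, and of 2908 genes called in 4OHT cells 1199 (41.2%) had the same sign in DMSO cells. With it, over 12345 genes, r was -0.20 and rho -0.22, and 1005 of 2896 called genes (34.7%) had the same sign. The DMSO arms did not hold the same sets (1V, 2V and 2VM against 2V, 2VM and 3VM), and the antisense share there was 1.48 to 1.73 with siNT 2 and 0.98 to 2.65 with siNT 4. Their part in this correlation was not tested. A test of whether the siRNA difference changed between 4OHT and DMSO cells called no gene with all 12 libraries (2612 of 13533 at an unadjusted p under 0.05, 353 calls by DESeq2) and 560 genes of 13691 (4.09%) without the library that stood apart. Without the DMSO siNT 4 library of set 2VM instead, 2258 genes were called. By the test without the library that stood apart, JAG1 (adjusted p = 0.0338), NRG1 (0.0419), LTBP2 (0.0461), ITPR3 (0.0306) and LYPD1 (0.0338) differed more in 4OHT than in DMSO cells, whereas ZMAT3 (0.0917), BTG2 (0.199) and LIF (0.052) did not pass. With the GC trend removed as well, 10 genes were called (0.073%), and JAG1 (0.0665), NRG1 (0.0806), LTBP2 (0.0913), ITPR3 (0.0665) and LYPD1 (0.0665) no longer passed.

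Genes were also placed by a contrast without any of the 6 libraries, the siSMARCA4 libraries under 4OHT against the DMSO libraries. It joins the response to 4OHT with the knockdown of SMARCA4, so its classes are not those of senescence alone. SMARCA4 itself was among the repressed genes, with a log2 difference of -1.13 (adjusted p = 2.02e-04 in edgeR). Of 1000 genes induced more than 2-fold there, 184 were higher (18.4%) and 101 lower (10.1%) with siNT 4, against 10.8% and 12.4% of all 12659 genes, with a median log2 difference of 0.11 against 0.0042. Of 1476 genes repressed more than 2-fold, 116 were higher (7.86%) and 209 lower (14.2%), with a median of -0.042. Set by set, the medians of the induced genes were 0.014, 0.18 and 0.093 for sets 1VM, 2VM and 3VM. With the GC trend removed the induced median was 0.065, with 15% higher and 7.7% lower. Without the DMSO library that stood apart, 1017 genes were induced, of which 17.3% were higher and 11% lower (median 0.092), and 1410 were repressed, of which 8.09% were higher and 13.3% lower (median -0.026).

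Because the siSMARCA4 libraries are read against a control siRNA, their levels are given beside both arms for the largest differences. SCN4B ranged from 0 to 0.24 CPM in the 6 siSMARCA4 libraries, IVL from 0.41 to 1.62 CPM and LYPD1 from 15.1 to 49.6 CPM, nearer to siNT 4 than to siNT 2 on the log2 scale. WNT16 (11.7 to 24.1 CPM) and DNER (2.92 to 4.42 CPM) lay nearer to siNT 2. For 9 of the 12 largest falls and 3 of the 12 largest rises the siSMARCA4 mean lay nearer to siNT 4, compared with 37.3% of all genes called lower and 42.7% of all genes called higher. Some genes lay beyond both control arms, SCN4B below them and C15orf48 above them. These libraries also carry the knockdown of SMARCA4, so its effect and a likeness to 1 control siRNA cannot be told apart. JAG1 ranged from 26.2 to 43.5 CPM in the siSMARCA4 libraries, a range that overlapped its siNT 4 libraries (41.1 to 44.0 CPM on the same scale) and lay below all siNT 2 libraries (80.7 to 93.6 CPM).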

How the data were processed

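RNA from IMR90 ER:RAS cells was sequenced by the authors as polyA-enriched, directional, single-end libraries (NEBNext Ultra II). Reads were aligned with STAR (version 2.7.8a) to hg38, and DESeq2 1.36.0 is named in the submitters' processing notes. The counting program, annotation and strand setting are not given in the sources used here. The deposited values are whole read counts per gene symbol (28266 symbols), not normalized, in 36 columns, 2 lanes for each of 18 libraries. No column was left unused. Of 29 labelled samples, 17 matched a column by name, and 1 library of 4OHT siSMARCA4_2 was placed by its group only. Samples without a column were not analysed here.

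Lanes were summed. Genes were kept by edgeR's filterByExpr (minimum count 10, 99.9% of counts kept), scaled by TMM (factors 0.96 to 1.02) and compared with edgeR 4.0.16 quasi-likelihood tests (R 4.3.3) on the 6 libraries, as siNT 4 minus siNT 2, with Benjamini-Hochberg adjustment and an adjusted p threshold of 0.05. Standard errors are the log2 difference over the square root of F. The common biological coefficient of variation was 7.39%. CPM are scaled by TMM within the 6 libraries, or within all 18 where other groups are given. Because counts of polyA reads are relative within a library, more RNA per cell and more cells with a transcript cannot be told apart. Antisense and overlapping genes can share counts, since the strand setting is unknown.

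Genes were named if fixed (ESR1, HRAS, SMARCA4), if members of the gene lists that were called or central to them, or if among the 12 largest rises and 12 largest falls of called genes with a mean log2 CPM over 1 and arms that do not overlap. The comparison, lists and tests were chosen with earlier results of these data known. Exon GC content came from GENCODE v44 (GRCh38). The GC trend was removed per library by a lowess fit (span 0.3). The antisense share took pairs with at least 100 shared exon bases, a partner of at least 50 CPM and a ratio of at least 20. Alternatives were DESeq2 1.42.0, other scaling and filters, wider sets of libraries, a replicate block and leaving out libraries. The tests were tried on simulated data. Some list members are counted but not reported here by name.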

Additional observations from a re-analysis of the deposited data

Results flagged for a closer look

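The log2 difference between siNT 4 and siNT 2 itself differed between 4OHT and DMSO cells for 14 named genes, by the edgeR test of that difference at an adjusted p under 0.05 without the DMSO siNT 4 library of set 2V. No gene passed with all 12 libraries, and the DMSO values given for these genes also leave that library out. With the GC trend removed none of the 14 passed (adjusted p 0.0665 to 0.189). The change in the log2 difference was positive for LOC100131315 (1.99, from 1.85 in 4OHT cells against -0.13 in DMSO cells), ITPR3 (2.32, from 1.80 in 4OHT cells against -0.51 in DMSO cells), ABCC3 (1.55, from 1.23 in 4OHT cells against -0.31 in DMSO cells), NRG1 (1.06, from 0.71 in 4OHT cells against -0.34 in DMSO cells), LTBP2 (1.17, from 0.80 in 4OHT cells against -0.37 in DMSO cells) and SREBF2 (0.77, from 0.36 in 4OHT cells against -0.41 in DMSO cells). It was negative for DNER (-2.26, from -1.89 in 4OHT cells, with too few counts for a DMSO value), LYPD1 (-1.45, from -1.86 in 4OHT cells against -0.40 in DMSO cells), EBF1 (-1.62, from -1.62 in 4OHT cells against 0.0063 in DMSO cells), NTF3 (-1.29, from -1.54 in 4OHT cells against -0.23 in DMSO cells), WNT16 (-1.04, from -1.54 in 4OHT cells against -0.49 in DMSO cells), JAG1 (-0.85, from -0.99 in 4OHT cells against -0.13 in DMSO cells), MMP12 (-2.90, from -0.72 in 4OHT cells, with too few counts for a DMSO value) and FAS (-0.56, from -0.60 in 4OHT cells against -0.032 in DMSO cells).

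For 5 more named genes all libraries of the siNT 4 arm lay on one side of the siNT 2 arm in 4OHT cells and on the opposite side in DMSO cells, all 6 DMSO libraries included, and the edgeR test of the difference did not call it, with or without the DMSO siNT 4 library of set 2V. It was positive for ERBB2 (0.82, from 0.28 in 4OHT cells against -0.54 in DMSO cells), MX1 (2.48, from 1.30 in 4OHT cells against -1.18 in DMSO cells) and PDGFRB (0.85, from 0.22 in 4OHT cells against -0.63 in DMSO cells), and negative for SESN1 (-0.77, from -0.42 in 4OHT cells against 0.35 in DMSO cells) and INSIG1 (-0.53, from -0.30 in 4OHT cells against 0.23 in DMSO cells). In both arms of 4OHT cells MX1 was at or under 1.48 CPM. The DMSO values of these 5 genes come from all 6 DMSO libraries. For each of the 5, the siNT 4 library of set 2V lay farthest from the siNT 2 arm. ERBB2, for example, stood at 36.4 CPM there, against 93.6 and 83.7 CPM in sets 2VM and 3VM.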

How the results depend on the processing

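The count of 2970 genes called stayed within 1.5 times under DESeq2 (2545), RLE scaling (2973), total count scaling (3182), other filters (3103 and 3369) and a replicate block (3304). It did not under wider sets of libraries, which add the spread of the other groups: 10 with all 18 libraries, 5 with the 12 siNT libraries, and, chosen after seeing the data, 586 with 17 libraries (583 of them called the same way in the 6), 926 with 11 siNT libraries and 126 with 17 libraries and the GC trend removed. Other corrections chosen after seeing the data gave 1890 (GC trend removed), 1906 (GC trend removed with a replicate block), 1507 (antisense share as a covariate) and 1097 (both). Leaving out 1 library gave 1518 to 3856, leaving out set 2VM 751 and set 3VM 1704, an adjusted p under 0.01 left 1364 and a change over 2-fold 178. Total count scaling moved the share of calls that were higher from 46.5% to 28.6% (910 higher, 2272 lower), with the median of all genes at -0.060. Deviations of same-numbered libraries correlated at 0.24, -0.16 and 0.30, so pairing by set number was weak and not uniform. The replicate block raised the count to 3304, and under it 126 of the 127 named genes kept their side of the threshold. In DMSO cells the 0 calls became 12 under DESeq2. For the difference between 4OHT and DMSO cells the 0 calls became 353 under DESeq2, 0 to 2258 when 1 library was left out, and, chosen after seeing the data, 114 in the VM sets alone, 10 with the GC trend removed and 1246 under DESeq2 (both without the DMSO siNT 4 library of set 2V). Genes repressed more than 4-fold had a median of -0.10 in place of -0.042. Signs turned for SHOC2, which stood at 0.044 with the GC trend removed, with the block or without it, at 0.069 with the antisense share as well and at 0.038 in 17 libraries with the GC trend removed, and for SMARCA4 (-0.037 with the GC trend removed and the antisense share). Of 126 named genes called, 72 were called in all 6 fits that left out 1 library. Both counts include ESR1 and HRAS, whose difference was known when the comparison was chosen. The cause of these shifts was not tested.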
